A study of Mus musculus with 6 samples.

Results

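Reg genes encode small secreted proteins with a C-type lectin fold. The members were taken as the rows of the deposited organoid table whose gene symbol is Reg followed by a digit, which gave 3 genes, Reg3b, Reg3g and Reg4, of 1420 genes in all. The mouse annotation (GENCODE M21, GRCm38) holds 7 genes of this name, and the expression of Reg1, Reg2, Reg3a and Reg3d was not analysed here.

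mRNA was measured by poly(A)-selected, strand-specific RNA-seq in small intestinal organoids from 3 wild-type (WT) and 3 Smarcad1 knockout (KO) samples on a C57BL/6 background, with both groups cultured in the same medium with EGF, Noggin and R-spondin-1. The organoids were collected after 5 days, with about 600 per condition. Smarcad1 is a chromatin remodelling ATPase, and the organoid experiment asked how its loss changes epithelial gene expression away from microbiota and immune cells. The labels disagree on the deletion: the genotype label and the design text name a Vil-Cre knockout, active in intestinal epithelium, and the growth protocol names ZP3-cre, active in the oocyte, with controls from the same litters. The groups are therefore called KO and WT. The design text calls the libraries of each group biological triplicates, but no label ties a library to its own animal or culture, so p-values measure the spread between these samples.

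Reg3g and Reg3b are made by enterocytes, Paneth cells and goblet cells and kill or hold off bacteria at the mucosal surface, Reg3g by binding the peptidoglycan of Gram-positive bacteria. Their transcription in the gut is known to be driven by microbial signals through Myd88 and by the cytokine IL-22 from immune cells acting through Stat3. Reg4 is a more distant relative that marks secretory cells of the crypt, among them enteroendocrine and goblet-type cells. Organoids hold epithelium without the microbiota and without the immune cells that make IL-22.

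Values are RPM, reads per 1000000 reads of the library, on a linear scale. The smallest step between values gave a depth of between 1.24e+07 and 1.57e+07 reads per library. Smarcad1 was measured at 105, 94.7 and 96.3 RPM in WT replicates 1 to 3 and at 21.7, 21.3 and 24.0 RPM in KO replicates 1 to 3, in the direction of the labels. The reads are summed over all its exons, those outside the deletion included. All 1420 genes had been selected by the authors' own test on these same libraries, so the calls below describe how the chosen genes look and are no independent evidence that they differ. By limma on log2(RPM + 0.1), 52.5% of the table had an adjusted p-value under 0.05 and was higher in KO, and 99.9% had one in either direction. In 51.3% of the table the KO values were all above the WT values.

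Reg3b and Reg3g lie on opposite strands of chromosome 6, at chr6:78370657-78373466 on the plus strand and chr6:78466269-78468872 on the minus strand, with 92803 bp between them. Reg1, Reg2, Reg3a and Reg3d are annotated in this gap. Reg4 lies apart, at chr3:98222156-98236748 on the plus strand. The coding regions of Reg3b and Reg3g were identical at 76.0% of aligned bases, against 49.6% for Reg3b and Reg4 and 49.5% for Reg3g and Reg4. None of the annotated transcripts of the 3 genes shared a 50-base stretch, the length of a read, with a transcript of another gene, and none of the 3 overlapped an annotated gene on either strand. Exact reads from one of them could therefore be told from those of its relatives.

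The 130 bases before the RefSeq start of each gene are shown because the chromosome 6 pair moved by the larger amounts while Reg4 moved by less. Sequences are from RefSeq (GRCm38.p6), where all 3 genes had an entry. The annotations disagree on the start of Reg3b. A GENCODE exon of this gene begins 24 bases before the RefSeq start, and a GENCODE transcript begins at the start of the gene span given above. The Reg3b window thus lies within that span. They read 5′ to 3′ on the gene's own strand, from chr6:78370755-78370884 (plus strand), chr6:78468875-78469004 (minus strand) and chr3:98222026-98222155 (plus strand). Capitals mark runs of at least 6 bases that are identical when Reg3b and Reg3g are aligned.
Reg3b: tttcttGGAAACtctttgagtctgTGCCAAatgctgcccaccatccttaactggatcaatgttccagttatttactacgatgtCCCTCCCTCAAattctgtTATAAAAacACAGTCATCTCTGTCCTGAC
Reg3g: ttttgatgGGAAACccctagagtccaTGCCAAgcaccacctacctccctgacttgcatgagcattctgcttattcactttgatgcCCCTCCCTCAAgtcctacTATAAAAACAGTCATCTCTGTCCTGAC
Reg4: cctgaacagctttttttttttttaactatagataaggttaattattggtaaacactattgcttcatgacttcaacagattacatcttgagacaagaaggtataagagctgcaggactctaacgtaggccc

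Over these 130 bases Reg3b and Reg3g had 94 identical bases (72.3%), 50 of them in such runs. Over windows of 300 bases (250 before the start and 50 after it), each of them was the closest of 27024 other promoters to the other by alignment score, and the closest to Reg4 was no Reg gene. The letters TATAAA, the core of a TATA box, were found in the windows of Reg3b and Reg3g and not in that of Reg4, where both strands were searched, and in 14.2% of 27025 promoters. The same letters were also in the windows of Reg1 and Reg2 and not in those of Reg3a and Reg3d. In the sequences above they begin 29 bases before the start in Reg3b and 27 bases before it in Reg3g. TTCNNNGAA, the letters of a Stat site, was found in the window of Reg3b, in neither Reg3g nor Reg4 and in 8.47% of all promoters. Among the Reg genes outside the table, Reg3d had it too. GGAAANNCC, letters shared by NF-kB sites, was found in the window of Reg3g, in that of no other annotated Reg gene and in 5.72% of all promoters. Of the other motifs searched, CACCTG, an E-box, was in the windows of Reg3b and Reg4 and in 19.9% of the 1047 promoters of table genes, and a Stat site with 1 more base in its spacer and the longer kappa B consensus were in none of the 3 (6.99% and 0.144% of all promoters). Of the Reg genes outside the table, Reg2, Reg3a and Reg3d had CACCTG and Reg1 had the Stat site with the longer spacer. These matches describe the letters of the windows and are not evidence of binding.

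Reg3b rose most. Its levels were 73.8, 27.9 and 36.8 RPM in WT replicates 1 to 3 and 522, 259.5 and 142 RPM in KO replicates 1 to 3. The groups did not overlap, although the lowest KO library stood only 1.93 times above the highest WT library and both groups were widely spread. The means were 46.2 ± 24.4 RPM in WT and 308 ± 195 RPM in KO (SD, n = 3 each), a ratio of 6.67. On the log2 scale it changed by 2.66 (standard error 0.54, limma adjusted p = 0.00559, 95% interval 1.37 to 3.96).

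Reg3g, the bactericidal lectin, rose by a similar amount from a higher level. WT replicates 1 to 3 held 193, 140 and 95.9 RPM of it, and KO replicates 1 to 3 held 902, 614 and 391 RPM. The groups were again apart, by 2.03 times between the lowest KO and the highest WT library. The means were 143 ± 48.6 RPM and 636 ± 256 RPM (SD, n = 3 each), and on the log2 scale it changed by 2.13 (standard error 0.365, limma adjusted p = 0.00345, 95% interval 1.25 to 3.001).

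Reg4 rose by less. Its WT libraries stood close together at 422, 393 and 405 RPM, and its KO libraries were at 974, 717 and 499 RPM. KO replicate 3 was only 1.18 times above the highest WT library, while KO replicate 1 was far above it. The means were 407 ± 14.5 RPM and 730 ± 238 RPM (SD, n = 3 each), a ratio of 1.79. On the log2 scale it changed by 0.79 (standard error 0.235, limma adjusted p = 0.0165, 95% interval 0.23 to 1.35). With the trend of each library with transcript length removed, the log2 change of Reg4 was 0.14 (limma adjusted p = 0.389), whereas Reg3b and Reg3g were at 1.92 and 1.75. With the length of the longest coding transcript in its place, the log2 changes were 1.96 for Reg3b, 1.42 for Reg3g and 0.18 for Reg4. Both trends were fitted to these same selected genes, so removing them can also take out part of a gene's own change.

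Thus 3 of 3 listed Reg genes were higher in KO, against 52.5% of the table, and had KO values all above their WT values, against 51.3%. Among the log2 changes of all 1420 genes, Reg3b stood at percentile 97.2, Reg3g at 94.9 and Reg4 at 74.3. The exact two-sided permutation p-value was 0.1 for each of the 3 genes, and with 3 against 3 libraries it can be no smaller. The summed level of the 3 genes was 689, 561 and 538 RPM in WT replicates 1 to 3 and 2398, 1590 and 1032 RPM in KO replicates 1 to 3. These are bulk samples, so more cells that make a Reg gene and more of its mRNA per cell cannot be told apart.

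**Figure D1:**
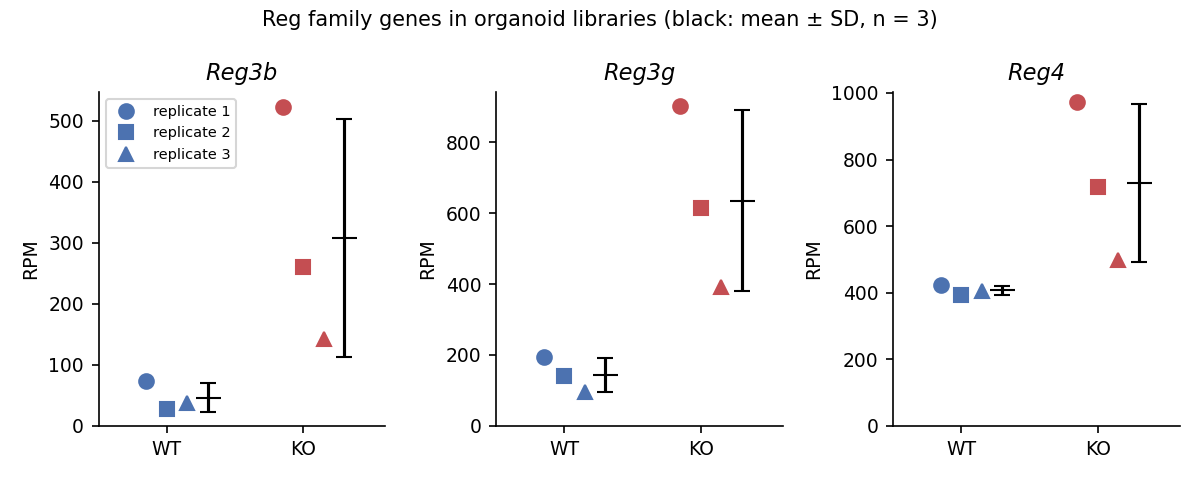
RPM of Reg3b, Reg3g and Reg4 in each WT (blue) and KO (red) library, with replicate numbers as symbols and black bars for the mean ± SD (n = 3). The KO values of each gene lie above its WT values, and KO replicate 1 is the highest and KO replicate 3 the lowest for all 3 genes.

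Levels of different genes were compared per kilobase of exon. Over merged exons, the WT means were 398 ± 14.2 RPM per kb for Reg4, 67.7 ± 23.0 for Reg3g and 40.4 ± 21.3 for Reg3b (SD, n = 3 each). In each WT library Reg4 was highest, Reg3g was next and Reg3b was lowest, but the values of Reg3g, 45.4 to 91.3 RPM per kb, overlapped those of Reg3b, 24.4 to 64.7. In KO the means were 715 ± 233, 301 ± 121 and 270 ± 170 RPM per kb in the same order, and Reg3g and Reg3b were within their spread. The order in KO depended on the length used. Merged exons of Reg3g span 2114 nt because they include a transcript with a retained intron, while its coding transcript has 771 nt. With coding transcripts, Reg3g no longer overlapped Reg3b in WT, at 124 to 250 RPM per kb against 35.6 to 94.3, and was above it in each KO library, although the KO ranges of 507 to 1170 and 182 to 667 overlapped. Reg3g stood at 825 ± 332 RPM per kb in KO and Reg4 at 715 ± 233. Reg3g was then above Reg4 in each KO library, although the ranges of the 2 genes overlapped, and in WT Reg4 remained highest, with 385 to 413 RPM per kb against 124 to 250 for Reg3g.

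To ask whether the 3 genes changed by unlike amounts, their ratios were taken within each library, where the scaling of the library cancels. The log2 ratio of Reg4 to Reg3g was 1.13, 1.48 and 2.08 in the WT libraries and 0.11, 0.22 and 0.35 in the KO libraries. The groups did not overlap and the KO ratios were close to each other, in spite of the spread of both genes in KO. The difference was -1.34 (exact permutation p = 0.1, two-sided, 0.15 after adjustment over the 3 pairs). The log2 ratio of Reg4 to Reg3b was 2.51, 3.81 and 3.46 in WT and 0.90, 1.46 and 1.81 in KO, also without overlap, with a difference of -1.87 (exact permutation p = 0.1, adjusted 0.15). The log2 ratio of Reg3g to Reg3b was 1.38, 2.33 and 1.38 in WT and 0.79, 1.24 and 1.46 in KO. These groups overlapped, with a difference of -0.53 (exact permutation p = 0.3), which this design cannot tell from none. A p-value under 0.1 cannot be reached with these numbers of libraries, so none of the 3 differences passed 0.05.

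**Figure D2:**
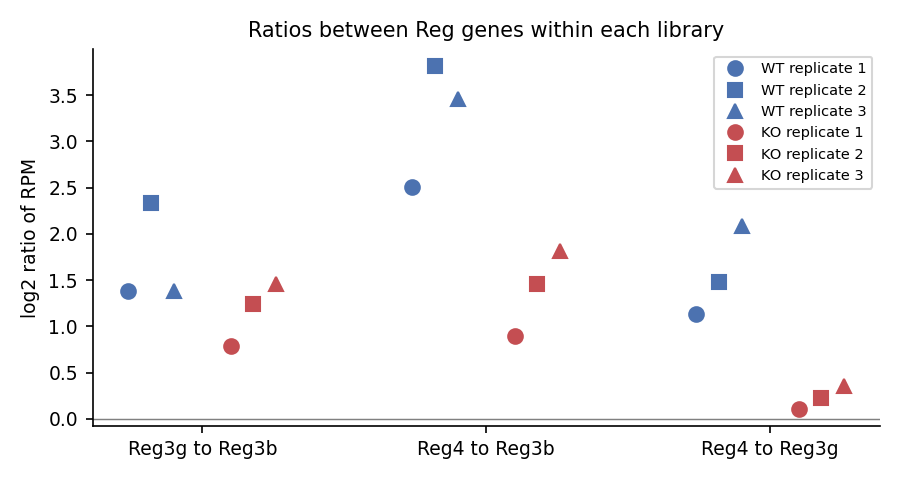
Log2 ratio of RPM between each pair of Reg genes within each library, WT in blue and KO in red, with replicate numbers as symbols. The ratios of Reg4 to Reg3b and of Reg4 to Reg3g are lower in the KO libraries without overlap, and those of Reg3g to Reg3b overlap.

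The KO libraries differed widely in Reg expression. Reg3b spread 3.67 times between its highest and lowest KO library, Reg3g 2.31 times and Reg4 1.95 times, against a median of 1.30 times over the table. The SD of log2(RPM + 0.1) in KO was 0.94 for Reg3b, 0.60 for Reg3g and 0.48 for Reg4, at percentiles 98.8, 95.3 and 90.5 of the table, whose median was 0.20. The values rest on at least 437 reads for Reg3b, 1469 for Reg3g and 5430 for Reg4, as inferred from the step, which gives a counting error of at most 4.78%, 2.61% and 1.36%. The genes differed in WT. Reg3b and Reg3g were spread there too, with SDs of 0.72 and 0.51 at percentiles 96.9 and 93.8, while Reg4 had an SD of 0.05 at percentile 16.5. The SD of Reg4 in KO was thus 9.39 times that in WT, against 1.30 times for Reg3b and 1.19 times for Reg3g. Over the table the SD was larger in KO than in WT for 66.2% of the genes. Without KO replicate 1 the SD in KO was 0.61 for Reg3b, and without KO replicate 3 it was 0.39 for Reg3g and 0.31 for Reg4.

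**Figure D3:**
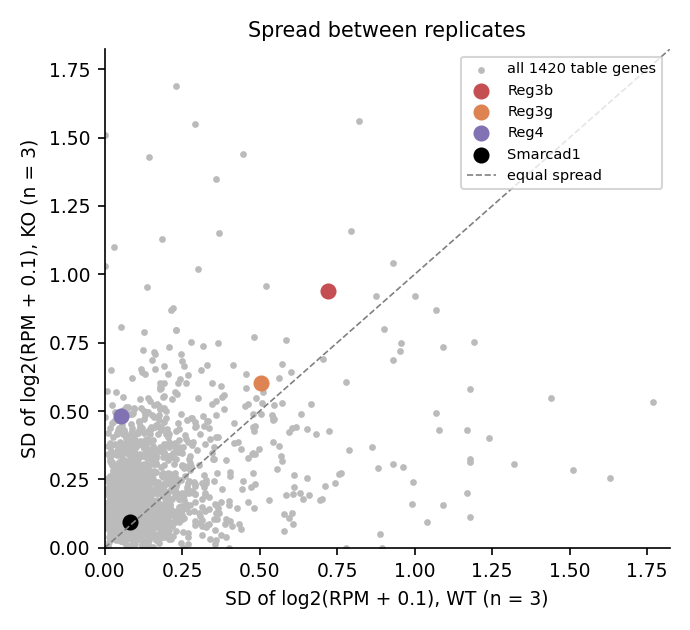
SD of log2(RPM + 0.1) over the 3 WT libraries (x axis) and the 3 KO libraries (y axis) for the 1420 table genes (grey), with Reg3b, Reg3g, Reg4 and Smarcad1 in colour and a dashed line for equal spread. Reg4 lies near 0 on the WT axis and at 0.48 on the KO axis, and Reg3b and Reg3g are spread in both groups.

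All 3 genes were highest in KO replicate 1 and lowest in KO replicate 3. In log2 units around the KO mean, Reg3b stood at 0.96, -0.05 and -0.91 in KO replicates 1 to 3, Reg3g at 0.59, 0.03 and -0.62, and Reg4 at 0.47, 0.03 and -0.50. The middle library was thus close to the KO mean for each gene. Over the whole table KO replicates 1 and 3 were also the pair of same-group libraries that differed most, with a chi-square per degree of freedom of 150 against 14.8 to 48.3 for the others. The order was also found in 12 of the 15 Paneth markers, 12 of the 18 antimicrobial products and 5 of the 6 enteroendocrine markers in the table that are described below. The 8 goblet markers were divided, with 4 in this order and 4 in the opposite one, the 2 listed stem cell markers had the opposite order, and the other C-type lectins were divided 2 to 2. It was found in 327 of the 747 genes higher in KO (43.8%). Among those whose longest transcript had at most 1100 nt it was found in 65 of 86 (75.6%), and among the longer ones in 256 of 647 (39.6%). The longest transcripts of Reg3b and Reg4 have 783 and 1021 nt, and that of Reg3g has 2089 nt because of the retained intron. Whether length plays a part in the order of the KO libraries for the Reg genes was not tested.

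A list of 41 genes of the receptors and signal chain known to drive Reg3 transcription was then examined, with receptors of IL-22, IL-6 family cytokines and IL-17, Stat3, Toll-like receptors and NF-kB subunits. Of these 41 genes 3 were in the table, and the others, among them Il22ra1, Stat3, Socs3 and Myd88, were not analysed here. Tlr4, the receptor for lipopolysaccharide, was at 0.16, 0.064 and 0.26 RPM in WT, near the floor of 3 reads, and at 2.01, 3.09 and 2.87 RPM in KO (log2 change 3.46, limma adjusted p = 0.000499). Its KO libraries stand in another order than those of the Reg genes. Relb, a subunit of NF-kB, rose from 103 ± 12.4 to 138 ± 7.04 RPM (SD, n = 3 each; log2 change 0.42, limma adjusted p = 0.0145). Its call was lost without WT replicate 1 (log2 change 0.36, limma adjusted p = 0.0548) and with the length trend by coding transcript removed (0.11, limma adjusted p = 0.368). Ticam1, the adaptor of Tlr3 and Tlr4 signalling that works beside Myd88, fell from 103 ± 4.74 to 78.1 ± 3.22 RPM (SD, n = 3 each; log2 change -0.39, limma adjusted p = 0.00909). Outside the list, and named after their values were seen, the table also held Il17re, a receptor of the IL-17 family (log2 change 1.35, limma adjusted p = 0.00784), and Chuk, a kinase that activates NF-kB (log2 change -0.58, limma adjusted p = 0.00607).

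Of 29 other genes known as Stat3 or IL-22 targets in epithelium, 5 were in the table, 3 higher and 2 lower in KO, against 52.5% higher over the table, with a median log2 change of 0.83 against 0.38. Without the genes of low mean level 4 were left, 2 higher and 2 lower, with a median of -0.09, beside 44.6% higher and a median of -0.35 over the table under the same filter. Duox2, the epithelial hydrogen peroxide-producing oxidase, rose from 32.0 ± 6.51 to 56.6 ± 8.99 RPM, and its maturation factor Duoxa2 from 8.91 ± 1.06 to 18.8 ± 5.98 RPM (SD, n = 3 each). Their log2 changes were 0.83 and 1.02 (limma adjusted p = 0.00869 and 0.00845). Duoxa2 had the KO order of the Reg genes, at 25.0, 18.3 and 13.0 RPM, and Duox2 the opposite one, at 46.7, 58.8 and 64.2 RPM. Nos2, the inducible nitric oxide synthase, rose by a log2 change of 0.85 (limma adjusted p = 0.00393). Sprr2a1 and Sprr2a3, small proline-rich proteins, fell by 2.13 and 1.02 on the log2 scale (limma adjusted p = 0.000213 and 0.00137). They are close copies of each other, so their reads are uncertain.

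Of 35 other antimicrobial products of intestinal epithelium 18 were in the table, with 15 higher and 3 lower in KO, against 52.5% higher over the table, and a median log2 change of 0.96. The most abundant were Lyz1, lysozyme, with a log2 change of 1.47 (limma adjusted p = 0.000117), Itln1, an intelectin, with 1.20, and the alpha-defensin Defa24, whose family of near-identical genes leaves its reads uncertain, with 1.07. Of these 18, Wfdc2 had a larger rise than Reg3b and Reg3g on the log2 scale, at low levels. It was at 0.00, 0.45 and 0.20 RPM in WT and at 1.77, 2.26 and 1.26 RPM in KO, with 1 WT library at 0. Outside the list, and named after its values were seen, the alpha-defensin Defa2 had a log2 change of 2.45 (limma adjusted p = 0.00191), above that of Reg3g. Leap2 and Dmbt1, also outside the list and named after their values were seen, fell. Their log2 changes were -0.75 and -0.87 (limma adjusted p = 0.0197 and 0.00326). Of the 18 listed genes, the 3 that fell were Lypd8 (named after its values were seen), which keeps flagellated bacteria from the epithelium, and the 2 Sprr2a genes. With the transcript length trend removed, 6 of the 18 were higher and 3 lower at a limma adjusted p-value under 0.05, against 38.0% higher over the table, so the share was no longer above that of the table, with a median log2 change of 0.12, and Defa24 was at 0.10 (limma adjusted p = 0.487). Among 44 other genes with a C-type lectin fold 4 were in the table. Clec2h and Clec2d rose by 0.95 and 0.48 on the log2 scale, Clec2g was at 0.23, 0.00 and 0.00 RPM in WT and at 2.33, 6.38 and 7.99 RPM in KO, and Atrn, attractin, fell by 0.81. With the length trend removed Clec2d reversed to -0.11 (limma adjusted p = 0.259), which left 2 of the 4 higher.

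**Figure D4:**
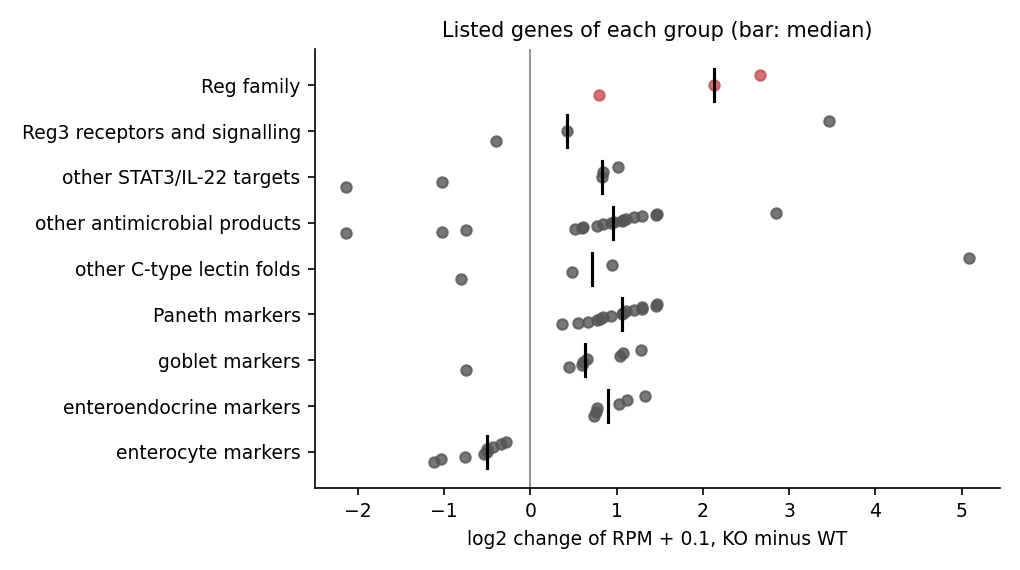
Log2 change (KO minus WT, RPM + 0.1) of each table gene in the lists, 1 point per gene with a bar at the median of the list. Reg3b and Reg3g lie to the right of nearly all antimicrobial products and Paneth markers, and Reg4 lies among them, with a median of 0.96 for the antimicrobial products and 1.06 for the Paneth markers.

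Markers of Paneth, goblet and enteroendocrine cells were mostly higher in KO, as the Reg genes were, while enterocyte markers were lower. The 2 stem cell markers in the table, of 14, were also higher (median 0.44), against 52.5% higher over the table. Of these 2, Rgmb lost its call with the replicate block (limma adjusted p = 0.0795) and with centred libraries (limma adjusted p = 0.0705). It also lost it in each fit that left out 1 library, except that without KO replicate 1. The 1 tuft cell marker, Dclk1, was lower (-0.90). Of 22 Paneth cell markers 15 were in the table, 15 of them higher in KO, against 52.5% higher over the table. Their median log2 change was 1.06, against 0.38 over the table. Their summed level was 9984 to 11450 RPM in WT and 20480 to 29920 RPM in KO. Of these markers 9 are also among the antimicrobial products above. Of 16 goblet cell markers 8 were in the table, 7 higher and 1 lower, against 52.5% higher over the table. Their sums were 2117 to 2352 RPM in WT and 3277 to 5534 RPM in KO. Of 24 enteroendocrine markers 6 were in the table, 6 of them higher, against the same 52.5% over the table. Their sums were 271 to 325 RPM in WT and 441 to 628 RPM in KO. Of the enterocyte markers, 9 of 20 were in the table and 9 of these were lower (median -0.50), against 47.4% lower over the table. This count was 8 with the length trend removed and without WT replicate 2, KO replicate 1 or KO replicate 3. It was 7 without KO replicate 2, and 6 with the replicate block, without WT replicate 1 or without WT replicate 3. With the replicate block 1351 of all 1420 genes were called, 714 of them higher and the rest lower. With the length trend removed 1195 of 1396 genes were called, 530 of them higher. Without WT replicates 1 to 3 in turn 1159, 1253 and 1219 genes were called, with 651, 678 and 672 higher. Without KO replicates 1 to 3 in turn it was 1348, 1138 and 1404, with 709, 621 and 734 higher. No listed Paneth, goblet or enteroendocrine marker was at 0 in a library. Without KO replicate 1 the calls were 14 of 15, 7 of 8 and 6 of 6 higher, against 49.9% over the table. Without KO replicate 2 they were 12 of 15, 6 of 8 and 6 of 6, against 621 of 1420 genes over the table. Without WT replicate 1 they were 14 of 15, 6 of 8 and 5 of 6, against 651 of 1420. With the length trend removed they were 7 of 15, 4 of 8 and 2 of 6, near the 38.0% over the table. Of 17 immune cell markers 2 were in the table, 1 higher and 1 lower, against 52.5% higher over the table. Their sums were 10.6 to 12.5 RPM in WT and 8.27 to 11.7 RPM in KO. Itgam fell from 9.52 to 4.40 RPM in the mean (log2 change -1.15, limma adjusted p = 0.00755). Lyz2, which is also a Paneth marker, rose from 1.83 to 5.2 RPM (log2 change 1.46, limma adjusted p = 0.00426). Ptprc, Cd3e and Il22 were not analysed here. Of 14 stromal markers 0 were in the table.

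The Reg genes were also set against these markers in the same library. The sums hold only markers that had passed the authors' test of KO against WT, nearly all of them higher in KO, so a Reg gene is lowered against them by construction, and the values are a description with no test. Per 1000 RPM of the listed Paneth markers, Reg4 was at 42.3, 36.6 and 35.4 RPM in WT and at 32.5, 29.3 and 24.4 RPM in KO. The log2 difference was -0.41. Relative to the goblet and enteroendocrine markers the Reg4 groups overlapped, with differences of -0.12 and -0.06. Reg3b stayed higher relative to the goblet and the enteroendocrine markers without overlap, by 1.75 and 1.82 on the log2 scale. Reg3g did too, by 1.21 and 1.28. Relative to the Paneth markers the differences were 1.46 for Reg3b and 0.93 for Reg3g, but the groups overlapped, as WT replicate 1 was at 7.40 RPM of Reg3b and 19.3 RPM of Reg3g per 1000 RPM and KO replicate 3 at 6.95 and 19.1 RPM. The part of cell type composition in the Reg changes was not tested.

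**Figure D5:**
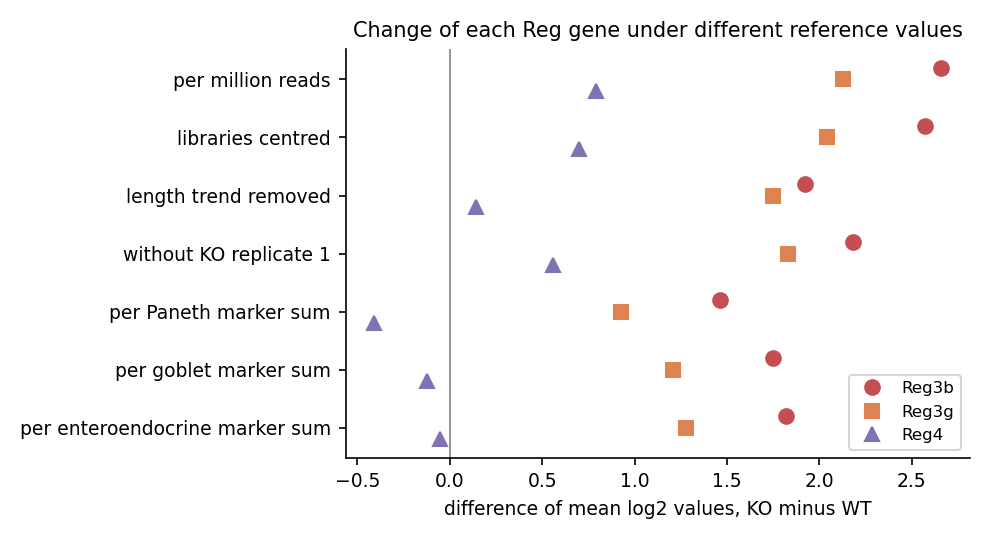
Difference of mean log2 values (KO minus WT) for Reg3b, Reg3g and Reg4 from the RPM values, with libraries centred on their median gene, with the length trend removed, without KO replicate 1, and relative to the summed markers of 3 cell types in the same library. Reg3b and Reg3g lie above 0 in each case, between 0.93 and 2.66, and Reg4 lies between -0.41 and 0.79.

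Genes with the pattern most like a Reg gene were sought among 1064 other genes, those of a mean level not below percentile 25 of the table, by the Pearson correlation of deviations from the group means over the 6 libraries. This correlation is a description over 6 points that share library, depth and the split into groups. Closest to Reg3b were Plcl2 (0.97), Rras (0.97), Hbegf (0.96), Pnliprp2 (0.95) and Creb3l3 (0.95). Closest to Reg3g were H2-T3, Casp4, Xpnpep2, Tgfbi and Gab1, at 0.98 to 1.00, and closest to Reg4 were Pdrg1, Guca2a, Acaa1a, H2-T23 and Ms4a10, at 0.99 to 1.00. By the values themselves, group difference included, Plcl2, Rras, Pnliprp2, Ppil1 and S100g were closest to Reg3b, Xpnpep2, Tgfbi, Hpd, Ldb1 and Tm4sf4 to Reg3g, and Guca2a, Mcrip1, Ms4a10 and Acaa1a to Reg4. These genes changed by less than the Reg3 genes, from -0.47 for Creb3l3 to 1.85 for Tm4sf4 on the log2 scale. Guca2a, which encodes guanylin, matched Reg4 in both measures, at 267, 247 and 254 RPM in WT and 691, 487 and 343 RPM in KO. The deviations of the 3 Reg genes correlated with each other at 0.86 (Reg3b and Reg3g), 0.85 (Reg3b and Reg4) and 0.80 (Reg3g and Reg4). Many other genes were closer. Among the 1064, Reg3g and Reg4 ranked 30 and 42 in likeness to Reg3b. Reg3b and Reg4 ranked 45 and 72 in likeness to Reg3g, and Reg3b and Reg3g ranked 132 and 162 in likeness to Reg4.

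Within 1 Mb of Reg3b or Reg3g no other gene was in the table, so the pair changed without a listed neighbour. Near Reg4, listed genes moved in both directions. Phgdh, the first enzyme of serine synthesis, fell from 178 ± 25.4 to 109 ± 5.96 RPM (SD, n = 3 each; log2 change -0.69, limma adjusted p = 0.00447). Zfp697, a zinc finger gene, rose from 3.67 ± 0.82 to 7.39 ± 0.68 RPM (SD, n = 3 each; log2 change 1.01, limma adjusted p = 0.00339).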

How the data were processed

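Libraries of 50 bp paired-end reads from 3 WT and 3 KO organoid samples were grouped by sample title. The authors trimmed reads with Trim Galore 0.4.2, mapped them with HISAT2 2.0.3 to GRCm38 (versions per the submitters' processing notes), kept unique matches and counted them over exons of merged transcripts in SeqMonk. The deposited values are RPM of the genes that passed the authors' DESeq2 test on raw counts. The deposited FDR column, the authors' corrected p-values of that test, was not used. Of the values under 1000 reads, 100% in each library lay within 0.02 of a whole multiple of 1 step, taken as 1 read for the depth and the counting error. The criterion used here for recovering counts asks for 100 genes with 1 to 20 reads, and the libraries held 26 to 71, so no count test was run.

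Each gene was tested with limma 3.58.1 in R 4.3.3 on log2(RPM + 0.1), two-sided, over 1420 genes with Benjamini-Hochberg adjustment and a threshold of 0.05, after the code was tested on simulated data. This scale understates the change of low genes. Single values were compared by exact permutation tests. Libraries of the same group were compared in pairs and each pair differed beyond counting noise (chi-square per degree of freedom from 14.8 to 150), so none was treated as a second copy of another. This does not show that they come from separate animals. Gene models are GENCODE M21. Promoters are RefSeq. Alignments used Biopython 1.88. For the length trend, a loess curve of each library's deviation from the gene mean on log2 longest transcript length was subtracted. The curve was fitted to the table genes, all selected for differing between KO and WT. Where genes of like length changed alike, subtracting it can remove part of their change by construction. The members and gene lists were chosen with earlier results of these data known. The genes named are the members, Smarcad1, list genes past a log2 change of 1 or among the most abundant of their list, the 5 genes most like each member and listed genes within 1 Mb. Some genes that this rule names are not reported here. Comparisons relative to marker sums and the length trend by coding transcript were added after the data were seen.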

Additional observations from a re-analysis of the deposited data

How the results depend on the processing

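Reg3b and Reg3g kept their direction and a limma adjusted p-value under 0.05 under 12 other ways of processing (another pseudocount, a filter on low genes, centred libraries, a replicate block, an intensity trend, the length trend removed, and each library left out), with log2 changes from 1.92 to 3.12 and from 1.75 to 2.44 (limma adjusted p-values from 0.00146 to 0.0213 and from 0.000734 to 0.0146). Reg4 did so except with the length trend removed, where its log2 change was 0.14 (limma adjusted p = 0.389), or 0.18 (limma adjusted p = 0.308) with coding transcript lengths. This last setting, chosen after seeing the data, gave 1.96 for Reg3b and 1.42 for Reg3g (limma adjusted p = 0.00759 and 0.00565), for Reg3g below the range above. Relative to the Paneth, goblet and enteroendocrine markers, which were selected for differing between KO and WT and so lower each Reg gene by construction, the log2 difference of Reg4 was -0.41, -0.12 and -0.0558, with overlapping groups for the last 2. Relative to the Paneth markers that of Reg3b moved to 1.46, and that of Reg3g moved to 0.93, 1.21 and 1.28 over the 3 lists. For the length trend the cause was not tested.

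Across fits that left out 1 library, log2 changes ran from 2.18 to 3.12 for Reg3b, from 1.83 to 2.44 for Reg3g and from 0.56 to 1.04 for Reg4, and the calls in the table from 1138 to 1404. The SD in KO ran from 0.61 to 1.33 for Reg3b, from 0.39 to 0.85 for Reg3g and from 0.31 to 0.68 for Reg4. The differences of the ratios ran from -0.69 to -0.22 (Reg3g to Reg3b), from -2.24 to -1.59 (Reg4 to Reg3b) and from -1.55 to -1.08 (Reg4 to Reg3g).

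With the replicate number as a block, log2 changes were 2.66, 2.13 and 0.79 for Reg3b, Reg3g and Reg4, with 1351 calls in the table, and paired sign flips gave exact p-values of 0.25 or more for the ratios, where 0.25 is the smallest that 3 pairs allow. The block changed the call of none of the 3 Reg genes. Deviations of same-numbered libraries correlated at -0.08, 0.09 and 0.06, which gives no sign of pairing. Centring the libraries moved the median log2 change of the table from 0.38 to 0.29, and Reg4 to 0.70. Over 66 named list genes and 847 values under the alternatives, 12 reversed and 88 lost their call. Depth does not limit the Reg values, but Tlr4, Wfdc2 and Clec2g rest on few reads in WT.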
